A study of Mus musculus with 2 samples.

Results

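The S100 genes encode small calcium-binding proteins. A set of 8 of them, S100a1, S100a4, S100a6, S100a8, S100a9, S100a10, S100a11 and S100a13, was followed in RNA of mouse dendritic cells, out of 18090 genes listed in at least 1 of 2 sequencing libraries. The members were found by their Entrez Gene numbers, and all 8 had reads in both libraries. Both libraries came from bone marrow of C57BL/6 mice, cultured for 6 days with GM-CSF (10 ng/ml) plus IL-4 (1 ng/ml), growth factors that turn marrow precursors into dendritic cells, then sorted by their surface CD86 and I-Ab, an MHC class II molecule. The 1 library labelled immature DC has no further treatment in the labels. The 1 library labelled mature DC is read here as the sample given lipopolysaccharide (LPS, a bacterial cell wall component) at 100 ng/ml for 24 h in the same growth factors. The sort gates, the number of mice and whether the immature cells stayed in culture for the extra time are not stated in the labels. The immature library held 7.56 M uniquely placed reads and the mature library 8.07 M. With 1 library per state there was no replicate error and no test was made, so every difference is one between these 2 libraries.

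S100 proteins are compact dimers that bind calcium through a pair of EF-hand loops, one of them of a form particular to the family, and on binding expose a surface that grips partner proteins. S100a8 and S100a9 form the heterodimer calprotectin, a major cytosolic protein of neutrophils and monocytes that withholds zinc and manganese from microbes and, once released, acts on Tlr4 and the receptor RAGE. The others act mainly inside the cell, on myosin, annexins, ubiquitin-linked factors and protein export.

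Most S100 genes lie side by side on chromosome 3. Sequences are shown for the 4 members with the largest differences between the libraries and, for contrast, for S100a11, a member with a smaller one. Each is the stretch of 250 bases before the annotated start of the gene, 5′ to 3′ on the strand of the gene, from RefSeq on GRCm38.p6, with matches to the searched motifs in capitals. Of the 8 members, 7 had an entry in that promoter table.
S100a8, chr3:90668821-90669070, plus strand: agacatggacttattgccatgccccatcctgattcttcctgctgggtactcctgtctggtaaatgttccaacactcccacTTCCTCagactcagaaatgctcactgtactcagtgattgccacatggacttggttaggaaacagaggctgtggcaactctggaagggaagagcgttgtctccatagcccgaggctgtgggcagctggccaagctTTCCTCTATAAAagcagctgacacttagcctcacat
S100a9, chr3:90695722-90695971, minus strand: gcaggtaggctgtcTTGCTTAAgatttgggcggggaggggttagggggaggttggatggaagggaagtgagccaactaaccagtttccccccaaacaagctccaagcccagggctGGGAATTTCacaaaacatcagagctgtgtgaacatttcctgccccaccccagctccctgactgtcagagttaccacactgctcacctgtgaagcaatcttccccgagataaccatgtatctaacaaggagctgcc
S100a4, chr3:90603520-90603769, plus strand: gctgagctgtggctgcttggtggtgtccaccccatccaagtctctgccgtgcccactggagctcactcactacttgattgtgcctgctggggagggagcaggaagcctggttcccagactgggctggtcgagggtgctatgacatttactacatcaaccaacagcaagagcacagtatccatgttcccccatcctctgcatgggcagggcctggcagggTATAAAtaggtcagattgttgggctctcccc
S100a6, chr3:90612644-90612893, plus strand: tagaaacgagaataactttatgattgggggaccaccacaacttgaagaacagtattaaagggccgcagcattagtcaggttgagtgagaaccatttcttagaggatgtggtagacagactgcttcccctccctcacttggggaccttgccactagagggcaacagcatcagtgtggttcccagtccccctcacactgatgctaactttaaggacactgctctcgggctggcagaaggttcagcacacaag
S100a11, chr3:93520246-93520495, plus strand: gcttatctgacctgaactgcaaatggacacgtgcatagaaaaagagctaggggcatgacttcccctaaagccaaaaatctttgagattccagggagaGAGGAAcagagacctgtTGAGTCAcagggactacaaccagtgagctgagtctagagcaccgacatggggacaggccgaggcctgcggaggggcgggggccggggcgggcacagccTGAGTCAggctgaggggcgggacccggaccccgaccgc
The motifs searched on both strands were the TATA box as TATAAA, the C/EBP motif as TTGCNNAA, the AP-1 motif as TGAGTCA, the PU.1 motif as GAGGAA and the NF-kB motif as GGGANTTTC. A TATAAA stood 30 bases before the start of S100a8 and 31 bases before that of S100a4. In S100a8 it adjoined a PU.1 match on the opposite strand, TTCCTC, and a second one stood 170 bases before the start. S100a9 held a C/EBP match, TTGCTTAA, at 236 bases and an NF-kB match, GGGAATTTC, at 135 bases before the start. S100a11 held the AP-1 match TGAGTCA at 136 and again at 38 bases before the start, with a PU.1 match at 153 bases. S100a6 held none of the 5 motifs, and none of the 5 stood in more than 2 of the 7 windows. The motifs were chosen after the data were seen. Another form of the NF-kB motif, searched first, was in none of the windows, and a wider form of the AP-1 motif, also searched first, was in that of S100a11 alone. Among 32536 different windows of the same length, TATAAA was present in 12.3%, TTGCNNAA in 9.57%, TGAGTCA in 4.45%, GAGGAA in 23.4% and GGGANTTTC in 0.944%. A match describes these letters only.

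All 8 S100 genes were lower in the mature library. Levels are given in RPKM, reads per kilobase of the gene and per 1000000 counted reads, which allows genes of different length to be compared, and differences as the ratio of immature to mature RPKM with its exact 95% counting interval in parentheses. Such intervals cover counting error only, because the reads carry no molecular identifiers and are not independent molecules. On the scale used to count genes, log2 of RPKM + 1, 7 of 8 members were 2-fold lower or more and 0 were higher, beside 11.3% lower and 9.05% higher among the 11547 genes that reached 1 RPKM in a library. The median log2 fold of the 8 members was -1.94, and that of all compared genes 0.026. S100a13 lay just beyond the 2-fold line at -1.06 and was counted as lower. S100a1 fell just short of that line at -0.997 and was not counted, with a plain RPKM ratio of 2.01. Values 4-fold lower or more were found for 4 members and for 2.74% of all compared genes. The whole counting interval lay beyond 2-fold lower for 6 members, all but S100a1 and S100a13, and for 8.67% of all compared genes.

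The members are short and abundant, and such genes leaned to lower values in the mature library as a whole. Their gene models span 392 to 719 bases. Among 476 other genes in that range of length, 17.2% were at least 2-fold lower, with a median log2 fold of -0.33. Among 1492 other genes with a mean RPKM at least that of the lowest member, 51.4, the share was 12.9% and the median -0.17. Of 116 other genes that met both limits, 25.0% were lower, with a median of -0.49 and 6 genes higher. With abundance taken from the immature library alone, as was done at first, 28.4% of 102 such genes were lower. The part of length and abundance in the S100 differences was not tested. These reference sets were chosen after the data were seen.

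**Figure D1:**
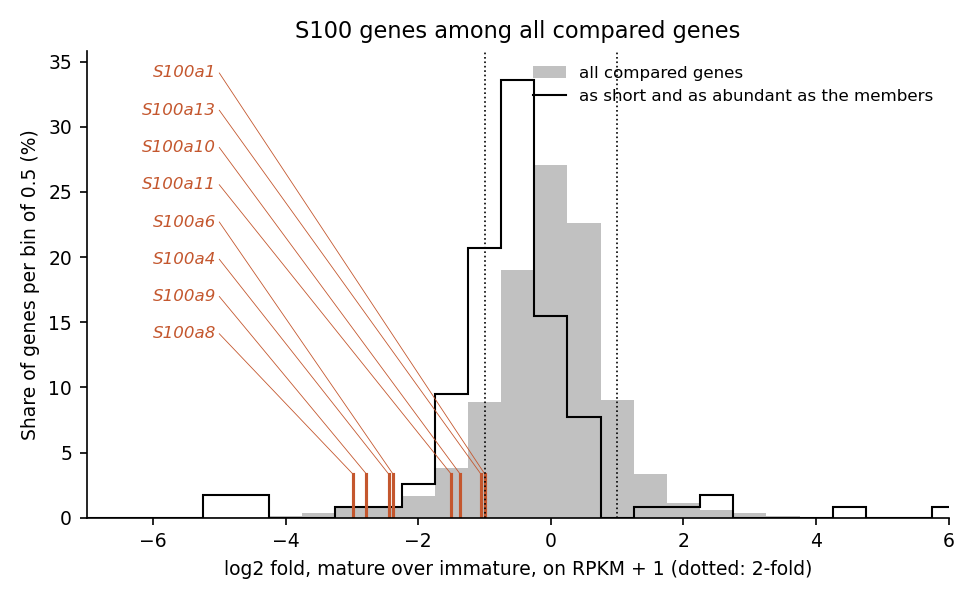
Log2 fold of mature over immature on RPKM + 1 (x axis) against the share of genes per bin of 0.5 (y axis), for all 11547 compared genes (grey) and for the 116 other genes as short and as abundant as the S100 members (black line). Orange ticks mark the 8 members, which all lie to the left of the middle of both distributions, from -2.99 for S100a8 to -0.997 for S100a1. The axis ends at 6, and dotted lines mark 2-fold.

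The calprotectin pair showed the largest differences. S100a9, the larger subunit and the most abundant S100 transcript of the immature library, stood at 3449 RPKM (12731 reads) in immature cells and at 501 RPKM (1973 reads) in mature cells. It was 6.89-fold lower (6.57 to 7.23) in the mature library and went from rank 6 to rank 82 among all genes by RPKM. S100a8, its partner subunit, stood at 1587 RPKM (4704 reads) and 199 RPKM (631 reads), 7.96-fold lower (7.32 to 8.66), and went from rank 22 to rank 279. The mature library was thus far below the immature one for both subunits, yet neither was near 0. Per length, there were 2.17 S100a9 transcripts for each of S100a8 in the immature library (2.1 to 2.25) and 2.51 in the mature one (2.3 to 2.75). The pair kept an excess of S100a9, and the counting intervals of the 2 ratios did not overlap.

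S100a4 and S100a6, which stand next to each other on the chromosome with the barely detected S100a5 between them, differed by nearly the same factor. S100a4, also called metastasin or FSP1, binds non-muscle myosin and is linked to cell motility. It stood at 770 RPKM (2989 reads) in immature cells and 141 RPKM (582 reads) in mature cells, 5.48-fold lower (5.01 to 6.0). S100a6, or calcyclin, binds the ubiquitin-linked factor Cacybp. It stood at 488 RPKM (2653 reads) and 92.9 RPKM (539 reads), 5.25-fold lower (4.79 to 5.77). The intervals of these folds overlapped, and the ratio of S100a4 to S100a6 per length was 1.58 (1.5 to 1.66) in the immature and 1.51 (1.34 to 1.7) in the mature library.

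S100a10 and S100a11 differed less and were the better retained of the abundant members. S100a11 (calgizzarin) binds annexin A1. It stood at 1658 RPKM (6319 reads) in immature cells and 584 RPKM (2375 reads) in mature cells, 2.84-fold lower (2.71 to 2.98). This placed it above S100a9 as the highest S100 gene of the mature library. S100a10, or p11, has lost calcium binding and forms a tetramer with annexin A2 at the plasma membrane. It stood at 590 RPKM (2901 reads) and 228 RPKM (1196 reads), 2.59-fold lower (2.42 to 2.77). The values of S100a11 are uncertain in level. Reads covered 61.3% of its length in immature and 60.3% in mature cells, and 49.2% of the 30-base words of its annotated transcripts also occur in transcripts of 7 other genes, led by the processed pseudogene Gm12854. For S100a10 that share was 0.778%, and its coverage was 96.6% and 91.1%. S100a4 shared 49.3% of such words with 1 gene, Gm42674, while reads covered 96.9% and 92.6% of the length of S100a4. S100a6, with no shared word, was covered over 75.7% and 69.3%. The other 4 members had no shared word and were covered over 79.8% of their length or more in both libraries.

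S100a1 and S100a13 were the least abundant members of the immature library and showed the smallest differences. S100a1, best known as a regulator of calcium release in muscle, stood at 193 RPKM (900 reads) in immature cells and 96.5 RPKM (479 reads) in mature cells, 2.01-fold lower (1.79 to 2.25). S100a13, which takes part in the export of Fgf1 and Il1a by a route outside the classical secretory pathway, stood at 69.8 RPKM (360 reads) and 33.1 RPKM (182 reads), 2.11-fold lower (1.76 to 2.54). Both intervals include 2-fold, and both exclude equal levels by counting error. The pair is arranged head to head: the RefSeq promoter windows of the genes, each of 300 bases and on opposite strands, overlap by 204 bases (chr3:90514281-90514484, GRCm38.p6). There were 2.77 S100a1 transcripts per S100a13 (2.45 to 3.14) in the immature and 2.92 (2.46 to 3.48) in the mature library.

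**Figure D2:**
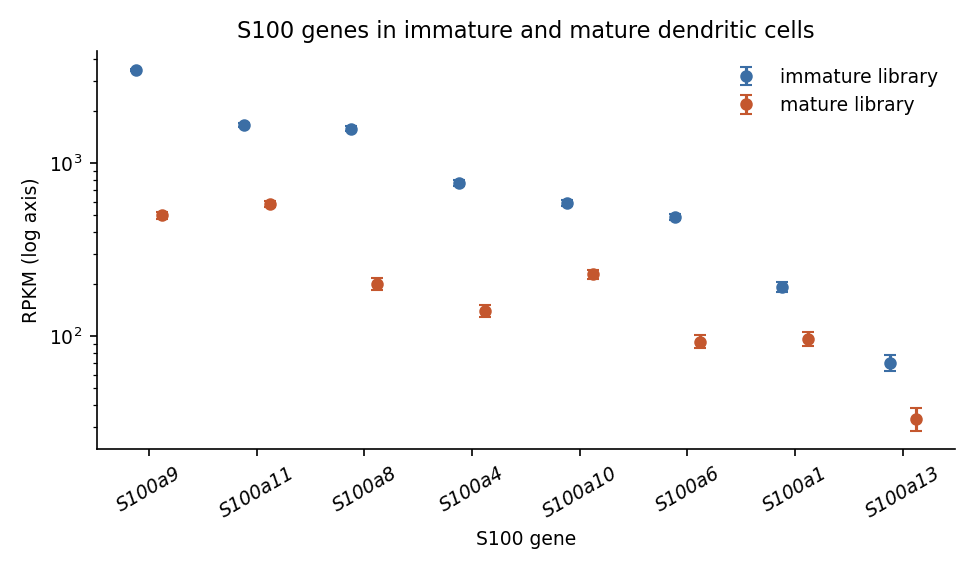
RPKM on a log axis (y) of the 8 S100 genes (x), ordered by their immature level, in the immature library (blue) and the mature library (orange). Bars are exact 95% Poisson intervals of the read counts. Each gene is lower in the mature library, by 2.01-fold (S100a1) to 7.96-fold (S100a8).

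Placed in order of their fold, the 8 members ran S100a8, S100a9, S100a4, S100a6, S100a11, S100a10, S100a13 and S100a1. Between S100a6 (5.25-fold) and S100a11 (2.84-fold) the counting intervals did not overlap. By their point values 4 members lay above 5-fold and 4 below 3-fold, though the interval of S100a6 reached down to 4.79. Within the upper group, S100a8 and S100a9 each lay apart from the next gene, while S100a4 and S100a6 overlapped. In the lower group every pair of neighbours in the order overlapped. By level, the immature order was S100a9, S100a11, S100a8, S100a4, S100a10, S100a6, S100a1 and S100a13, in which only S100a11 and S100a8 had overlapping intervals. In the mature library it was S100a11, S100a9, S100a10, S100a8, S100a4, S100a1, S100a6 and S100a13, with overlaps between S100a10 and S100a8 and between S100a1 and S100a6.

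The family as a whole was therefore both smaller and differently composed in the mature library. The summed level of the 8 genes was 8805 RPKM in immature and 1875 RPKM in mature cells, 4.7-fold lower. By reads, the members held 0.444% (Wilson 95% interval 0.439 to 0.448) of the immature and 0.0986% (0.0964 to 0.101) of the mature reads. Without S100a8 and S100a9 the sum of the other 6 was 3769 and 1174 RPKM, 3.21-fold lower. S100a9 held 39.2% of the family's summed RPKM in immature and 26.7% in mature cells, and S100a8 18.0% and 10.6%. The share of S100a11 was 18.8% and 31.1%, that of S100a10 6.7% and 12.2%, and that of S100a1 2.2% and 5.15%. S100a4 held 8.75% and 7.5%, S100a6 5.54% and 4.95%, and S100a13 0.793% and 1.76%.

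**Figure D3:**
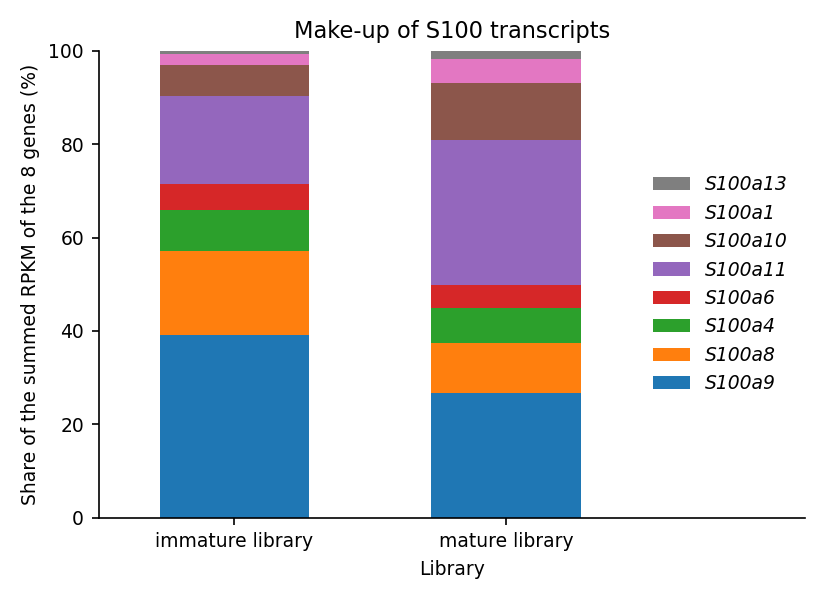
Share of the summed RPKM of the 8 S100 genes (y axis, percent) held by each gene in the immature and the mature library (x axis). S100a9 and S100a8 together take the larger part in the immature library, while S100a11 takes 31.1% in the mature library against 18.8% in the immature one.

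The other S100 genes looked up had few reads or none in either library. Of these 9, 6 were listed in neither library and were taken as 0 reads: S100a2, S100a7a, S100a14, S100a16, S100g and S100z. For them, a silent gene cannot be told from one missing in the annotation that was counted. For a gene in that annotation, a count of 0 allows up to 3 reads, or 0.397 reads per 1000000 for immature and 0.372 for mature cells. S100a3, which is known from hair follicles, had 2 and 1 reads, and S100b, the glial member, 3 and 0. S100a5 had 5 and 0 reads. Set against a floor of 3 reads in the mature library it was 1.78-fold lower, which leaves out the counting error of its 5 reads and is not a lower bound.

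The genes beside the S100 cluster that could be compared were not 2-fold lower in the mature library. In the RefSeq gene order, 6 members fall in a stretch in which every protein-coding gene is an S100 gene, from S100a1 to S100a9. The 6 protein-coding genes on its near side, Slc27a3, Ints3, Npr1, Ilf2, Snapin and Chtop, all had at least 1 RPKM. Of these, 2 were 2-fold higher or more in mature cells and 0 were lower, with a median log2 fold of 0.38. Over all compared genes 9.05% were higher and 11.3% lower. A count over 6 genes does not set these neighbours apart from other genes. Chtop, an mRNA export factor that adjoins S100a1, stood at 20.2 and 18.7 RPKM. Npr1, a natriuretic peptide receptor, stood at 1.24 and 9.96 RPKM. On the far side lie 56 protein-coding genes between S100a9 and S100a11, among them the barrier genes of the epidermis such as Lor and Flg, and 0 of them reached 1 RPKM. S100a11 and S100a10 stand together beyond them, with no neighbour among the 6 genes on either side reaching 1 RPKM. Along the main stretch, the fold was smallest at the S100a1 and S100a13 end and largest at the S100a8 and S100a9 end.

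**Figure D4:**
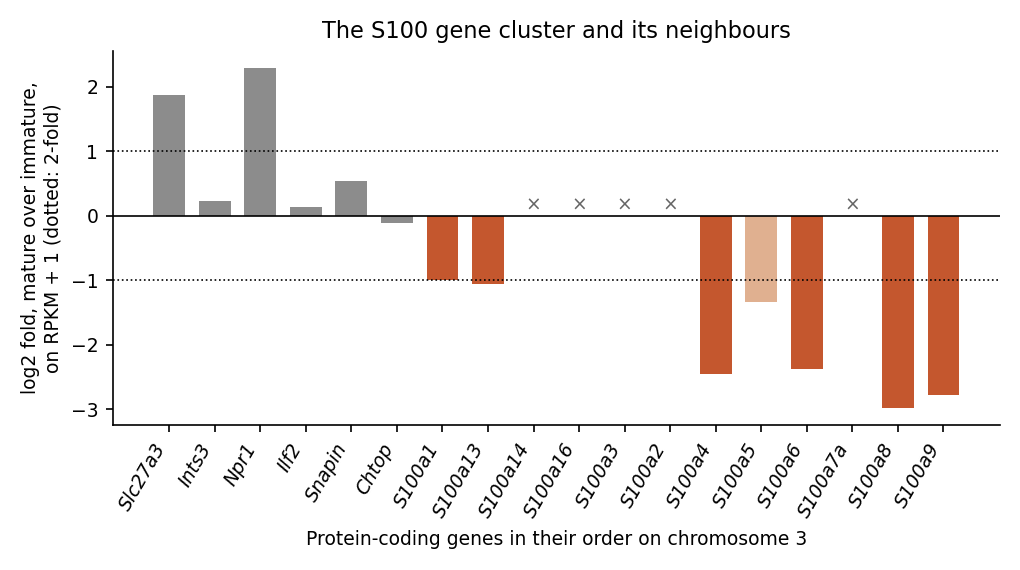
Log2 fold of mature over immature on RPKM + 1 (y axis) for protein-coding genes in their order on chromosome 3 (x axis): S100 members in orange, S100a5, on 5 reads, in light orange, other genes in grey, and genes under 1 RPKM in both libraries as crosses. The members lie from -0.997 to -2.99, while the 6 neighbours lie between -0.11 and 2.29.

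Partners and receptors of the S100 proteins had no common direction. Of 23 looked up, 20 had at least 1 RPKM in a library, and 3 of these were at least 2-fold higher, 1 was lower and 16 lay within 2-fold, with a median log2 fold of 0.15, beside 9.05% higher and 11.3% lower over all compared genes. Among the receptors of calprotectin, Tlr4 stood at 32.4 RPKM (immature) and 40.2 RPKM (mature), the order kept for the values that follow, and its co-receptors Ly96 at 7.89 and 37.4 RPKM and Cd14 at 146 and 328 RPKM. Ager, which encodes RAGE, rested on 27 and 11 reads, at 2.55 and 0.974 RPKM. Bsg, another receptor of S100a9, stood at 345 and 433 RPKM, and the scavenger receptor Cd36 at 100.0 and 152 RPKM. For S100a10, the partner Anxa2 was 1.32-fold lower (1.25 to 1.38), at 367 and 279 RPKM, and the scaffold Ahnak stood at 33.0 and 48.1 RPKM. Reads covered only 41.2% and 40.9% of the length of Anxa2, so its values are uncertain in level. The urokinase receptor gene Plaur stood at 359 and 251 RPKM, Plau, the urokinase gene, at 62.6 and 50.7 RPKM, and the plasminogen receptor gene Plgrkt at 54.1 and 67.9 RPKM. For S100a11, Anxa1 was 1.24-fold lower (1.19 to 1.29), at 467 and 378 RPKM. Thus S100a10 and S100a11 differed more between the libraries than the annexins they bind.

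For S100a4, the myosin heavy chain gene Myh9 stood at 365 and 303 RPKM. Trp53, the tumour suppressor p53 to which S100a4 also binds, was the lower partner, 2.76-fold lower (2.45 to 3.13) at 67.1 and 24.3 RPKM. For S100a6, Cacybp stood at 68.4 and 38.7 RPKM, its co-chaperone Sugt1 at 30.2 and 47.4 RPKM, and the annexin genes Anxa11 and Anxa6 at 17.6 and 22.7 RPKM and at 124 and 70.3 RPKM. Anxa11 was covered over only 41.6% and 43.6% of its length, so its values are uncertain in level. The cargoes of S100a13 went apart. Il1a, an interleukin-1 cytokine, stood at 407 RPKM in both libraries, and Fgf1, a fibroblast growth factor, had 3 immature and 123 mature reads, 38.4-fold higher (12.8 to 189).

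Related protein families differed less between the libraries than the S100 members. Over all compared genes, 9.05% were at least 2-fold higher and 11.3% lower, so counts in lists this small do not set these families apart from other genes. Of 9 annexin genes with at least 1 RPKM, 0 were at least 2-fold higher or lower, and the median log2 fold was -0.31. Of 22 other genes for EF-hand proteins, among them the calmodulins, calpains and the actin bundler Lcp1, 2 were lower and 20 lay within 2-fold, with a median of -0.40. The 2 lower ones, named after their values were seen, were Aif1, an actin-binding protein of macrophages, 10.1-fold lower (6.38 to 17.0), and Nucb2, 2.62-fold lower (2.26 to 3.04).

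Many markers of other marrow cells were also lower in the mature library. The counts for each marker list stand beside 11.3% at least 2-fold lower and 9.05% higher over all compared genes. In bulk RNA, fewer cells of a type and less RNA per cell cannot be told apart. Dendritic cell markers had reads in both libraries, and 10 of 10 reached 1 RPKM in at least 1 of them. Of these 2 were at least 2-fold higher, 1 was lower and 7 lay within 2-fold, with a median log2 fold of 0.14 and a summed level of 8754 and 6192 RPKM. The lower one was Itgax, which encodes CD11c, at 407 and 148 RPKM, 2.75-fold lower (2.66 to 2.84). The higher ones were the cytokine receptor gene Flt3, at 0.722 and 3.28 RPKM, and the transcription factor gene Zbtb46, at 4.51 and 13.2 RPKM. All 3 were named after their values were seen. In addition, 7 of 7 markers of mature dendritic cells were higher by 2-fold or more in the mature library. The cells had been sorted by CD86 and I-Ab. Cd86 is in this list and MHC class II genes are in the dendritic one, so the lists are not independent of the sort. Among 21 genes of neutrophils and their precursors, the cells in which S100a8 and S100a9 are most abundant, 16 were at least 2-fold lower, 0 were higher and 5 lay within 2-fold. The median was -2.78, the summed level was 6714 and 2065 RPKM, and no gene of the list was at 0 reads in either library. Its most abundant genes differed among themselves. Chil3 (Chi3l3 in the list), a chitinase-like protein, stood at 3118 and 556 RPKM, 5.61-fold lower (5.47 to 5.75), and Ngp, a granule protein, at 1204 and 113 RPKM, 10.6-fold lower (9.99 to 11.3). Mmp8, the neutrophil collagenase, stood at 1025 and 770 RPKM, and Lcn2, the iron-scavenging lipocalin, at 501 and 415 RPKM, both within 2-fold. S100a8 and S100a9 thus lay between these genes.

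Of 15 monocyte and macrophage genes, 14 had at least 1 RPKM, of which 6 were lower and 1 was higher, with a summed level of 9990 and 2110 RPKM, a median of -0.97 and 0 genes without a read. Lyz2, the lysozyme of myeloid cells, stood at 8168 and 1324 RPKM, Lyz1 at 529 and 67.7 RPKM, Cd68 at 684 and 392 RPKM and Csf1r at 280 and 141 RPKM. Of 11 eosinophil, basophil and mast cell genes, 9 had at least 1 RPKM, and 8 of these were lower and 0 higher, with a median of -2.97 and a summed level of 426 and 14.7 RPKM. Ear2 and Prg2, of eosinophil granules, stood at 199 and 5.88 RPKM and at 145 and 4.29 RPKM, Epx at 32.5 and 0.967 RPKM and Ear1 at 23.1 and 0.67 RPKM. Fcer1a and Ms4a2 had no read in either library, and Prg3 none in the mature one. T, NK and B cell genes summed to 4.89 and 3.02 RPKM over 7 genes and erythroid genes to 1.51 and 0.341 RPKM over 5. The part of other cell types in the S100 differences was not tested.

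**Figure D5:**
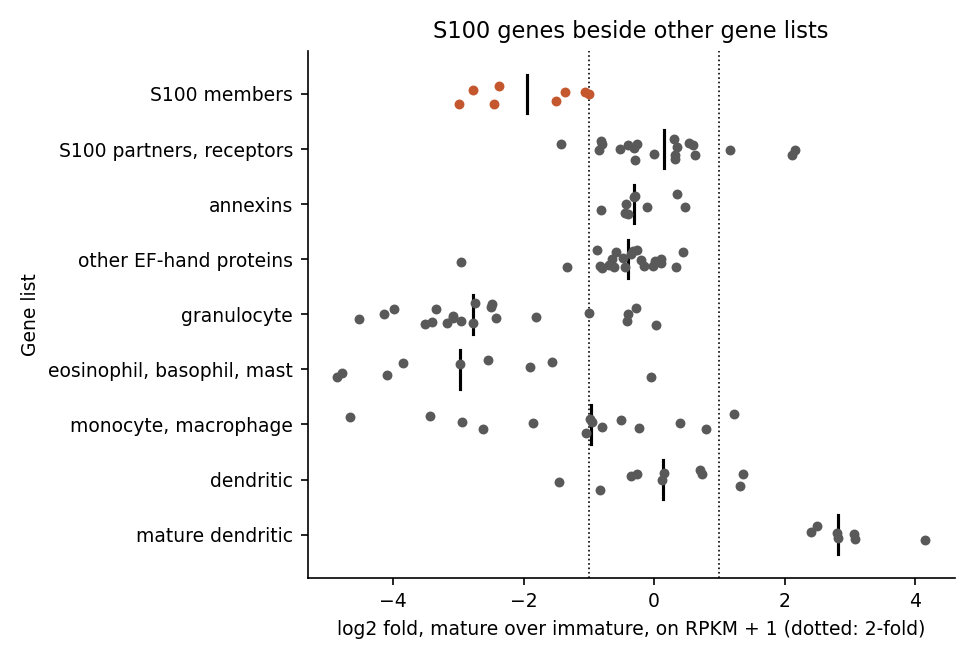
Log2 fold of mature over immature on RPKM + 1 (x axis) of single genes (points) in each gene list (y axis), with the list's median as a black bar and dotted lines at 2-fold. The median of the S100 members (orange, -1.94) lies to the left of those of their partners (0.15), the annexins (-0.31) and other EF-hand proteins (-0.40). Aif1, Nucb2, Trp53 and the dendritic marker Itgax lie among the members. The range of the members also overlaps with the granulocyte (-2.78), eosinophil, basophil and mast cell (-2.97) and monocyte lists (-0.97).

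The genes nearest to each member in the plane of the 2 log2 levels were taken as those most like it, over 2 libraries only and as a description. S100a9 was nearest to Chil3, then to the chemokine genes Ccl6, at 2558 and 417 RPKM, and Ccl17, at 2776 and 840 RPKM. Their distances were 0.21, 0.50 and 0.81 log2 units. S100a8 was nearest to Car4, a carbonic anhydrase at 1429 and 163 RPKM, at a distance of 0.33. Next came Ngp at 0.90 and Cotl1 at 0.96, which are loose matches only. S100a4 was nearest to Eif5a, Ly6e and Tyrobp, and S100a6 to Alox5ap, Napsa and Fn1. S100a11 was nearest to Arg1, at 1441 and 596 RPKM, followed by Cd52 and Clec4n, and S100a10 to Ifitm3, at 639 and 238 RPKM, followed by Itgam and Cox4i1. S100a1 and S100a13 had closer genes, led by Glrx at a distance of 0.062 and Sae1 at 0.042.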

How the data were processed

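RNA of 1 immature and 1 mature library was compared, grouped by the labels. The deposited files hold, per the file headers, for each gene the count of unique reads, the model's length, its coverage in percent and RPKM. The authors' RPKM is the count per kilobase and per 1000000 counted reads: the formula returned every deposited value within a relative deviation of 1.07e-07. Per the submitters' processing notes, the build was mm8. For the aligner, counter and strandedness, nothing is stated in the sources used here. A gene not listed in a file was taken as 0 reads.

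Symbols were matched by Entrez number or accession to RefSeq (GRCm38.p6), for 16219 of 18090 IDs. Genes that reached 1 RPKM in either library were compared on log2(RPKM + 1), which understates the difference of low genes, and called at 2-fold. Ratio intervals are exact Clopper-Pearson intervals on the split of a gene's reads, at 95%. Shares of reads have Wilson intervals. Words of 30 bases came from GENCODE transcripts. Work was done in Python 3.11.15, with scaling factors from edgeR 4.0.16 and DESeq2 1.42.0. The calls and intervals were tried on simulated counts with Poisson error only. Those counts hold no variation between libraries of a state, so that error was not covered. The members and gene lists were chosen with earlier results of these data known. Genes were named by a rule: all members, S100 genes with reads, partners with at least 1 RPKM, the 4 most abundant markers of other cells and those without reads, 3 most similar genes per member, and neighbours. Alternatives changed the pseudocount, filter, scaling, fold and coverage.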

Additional observations from a re-analysis of the deposited data

How the results depend on the processing

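All 8 members stayed lower in the mature library under each of the 6 pseudocounts and scalings tried, with log2 folds between -3.02 and -0.88. Rescaling to a common sum of RPKM shifted every gene by 0.086, and by 0.11 with a sum that omits the 50 highest genes. Under the first, S100a9 was at -2.70 and S100a11 at -1.42, and under the second, S100a9 was at -2.67, S100a11 at -1.39 and S100a10 at -1.25. The number of members at least 2-fold lower was 6 to 8 under the other settings, as S100a1 and S100a13 stand near the line, and 4 at a 4-fold limit. At 4-fold, 197 of all genes were higher and 316 lower, with 2 partners, 1 EF-hand gene, 4 monocyte genes and 0 dendritic genes apart. With a pseudocount of 5 RPKM, 469 genes were higher, 686 lower and 1 dendritic gene apart. Among other genes as short as the members 39 were higher and 82 lower, among those as abundant 163 and 193, and among those that met both limits 6 and 29, and with abundance from the immature library alone 2 and 29, settings chosen after seeing the data. By reads in place of RPKM, the family shares in the immature and mature libraries were 37.9% and 24.8% for S100a9, 14.02% and 7.93% for S100a8, 7.91% and 6.77% for S100a6, 8.64% and 15.0% for S100a10, 2.68% and 6.02% for S100a1 and 1.07% and 2.29% for S100a13, and that of S100a11 in the mature library 29.8%, since reads do not correct for length. No paired analysis was possible because each state has 1 library, which also leaves no replicate to leave out.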
